A study of Arabidopsis thaliana with 16 samples.

Results

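Loss of the nuclear basket protein NUP136 was examined in Arabidopsis thaliana seedlings that already carried the nup50c mutation, by setting the double mutant nup50c nup136 against the single mutant nup50c. These are 4 of the 16 libraries of the series, 2 of each genotype, chosen by their genotype labels. All 4 carry the nup50c mutation, and only nup50c nup136 also carries nup136. The material was whole seedlings harvested after 9 days on medium with sucrose and no treatment, and the study's wild type (WT) is Col-0. The study used strand-specific mRNA sequencing of WT and every single, double and triple combination of the mutations nup50c, nup82 and nup136. The labels do not name the alleles, and they do not state that a genotype's 2 libraries stem from separate cultures. Every p-value therefore measures at most the spread between libraries of a genotype, which may be technical. The main model estimated that spread from all 16 libraries of the series.

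The nuclear basket is the fibrous structure on the nucleoplasmic face of the nuclear pore complex, and it takes part in the export of mRNA and the import of proteins. NUP136, also named NUP1, is a plant basket protein, and NUP50 proteins carry a Ran-binding domain and assist the release of import cargo. Ran is the small GTPase whose nuclear and cytoplasmic forms set the direction of transport through the pore.

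Levels are given as CPM, read counts per 1e6 reads of the scaled library, and changes as edgeR log2 fold changes with their SE. Genes are called higher or lower, or said to have risen or fallen, at a Benjamini-Hochberg adjusted p under 0.05 over the 22427 genes tested. In every called gene named below except BIP3, both libraries of one genotype lay beyond both libraries of the other. Total counts ran from 37923632 to 46194172 per library. In whole seedlings, fewer cells of a type and less RNA per cell cannot be told apart.

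NUP136 (AT3G10650, chromosome 3, 3325074 to 3331282, TAIR10) stood at 52.6 and 44.4 CPM in nup50c and 19.9 and 20.6 CPM in nup50c nup136. The libraries of the double mutant were both below those of nup50c, and NUP136 fell 2.39-fold (log2 fold change -1.26 ± 0.13, adjusted p = 6.59e-08). Counts cover the whole gene and do not separate transcripts of a disrupted allele from intact ones. NUP50C (AT4G11790, chromosome 4, 7090313 to 7093492) stood at 15.0 and 13.2 CPM in nup50c and 14.4 and 9.76 CPM in nup50c nup136, against 40.6 and 43.3 CPM in WT, so it was low in both genotypes, which share the nup50c label. The log2 fold change of NUP50C between them was -0.22 ± 0.13 (adjusted p = 0.229). NUP82 (AT5G20200, chromosome 5, 6816612 to 6821827), a relative of NUP136, stood at 33.4 and 31.5 CPM in nup50c and 32.8 and 28.9 CPM in nup50c nup136 (adjusted p = 0.667).

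**Figure D1:**
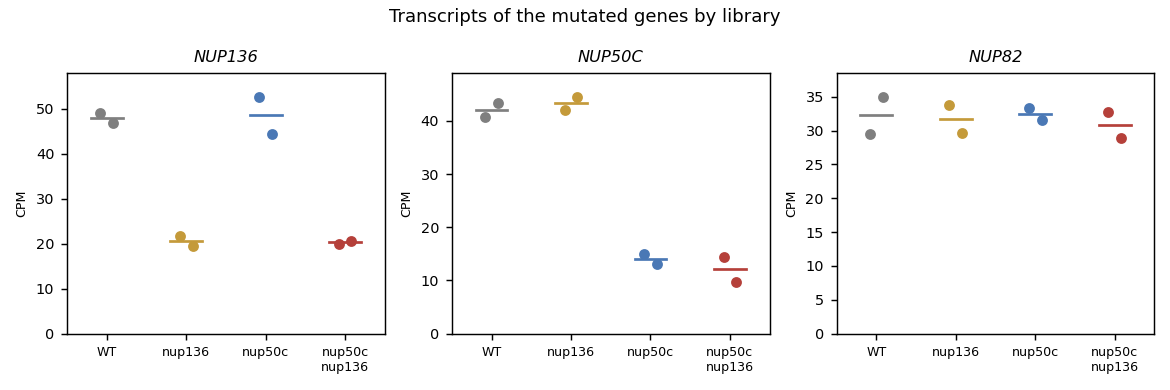
CPM (vertical axis, from 0) of NUP136, NUP50C and NUP82 in WT, nup136, nup50c and nup50c nup136. Each point is 1 library and each line the mean of 2. NUP136 was low in the libraries labelled nup136, at 19.6 to 21.8 CPM, and NUP50C was low in those labelled nup50c, at 9.76 to 15.0 CPM.

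Markers of the tissues of a seedling were present, and those of seed and pollen were near 0. The 36 photosynthesis genes summed to between 80344 and 98039 CPM over the WT, nup136, nup50c and nup50c nup136 libraries. They were at 93124 and 95005 CPM in nup50c and 83498 and 80344 CPM in nup50c nup136. The root patterning and endodermis list summed to 177 and 165 CPM in nup50c and to 122 and 112 CPM in nup50c nup136, and the root hair list to 100 and 86.7 CPM against 65.2 and 49.2 CPM. The 15 seed markers summed to 0.825 and 0.286 CPM in nup50c and to 1.92 and 0.884 CPM in nup50c nup136, and the 6 pollen markers to 0.179 and 0.429 CPM against 0.834 and 0.690 CPM. Their part in the results below was not tested.

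Loss of NUP136 in nup50c moved a broad share of the transcriptome. Of 22427 genes, 6050 (27.0%) were called, 2885 higher (12.9%) and 3165 lower (14.1%), and the median log2 fold change of all genes was 0.01. Most changes were small: the median absolute log2 fold change of called genes was 0.52, and 1264 called genes changed by at least 1 on the log2 scale, 547 higher and 717 lower. With library totals as the only scaling the larger direction turned, with 3197 higher and 2913 lower. The count was 3567 without nup50c nup136 replicate 2 and 3778 without nup50c replicate 1, and between 4053 and 4774 without either of the others.

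Removing NUP136 changed fewer genes in WT and more in nup50c nup82. In nup136 against WT, 3228 genes (14.4%) were called, 1471 higher (6.56%) and 1757 lower (7.83%), which turned to 1833 and 1398 with library totals. The libraries labelled nup82 nup136 gave 4822 (21.5%) against those labelled nup82, 2000 higher (8.92%) and 2822 lower (12.6%), which turned to 2804 and 2467 with library totals. Those labelled nup50c nup82 nup136 gave 10374 (46.3%) against nup50c nup82, 4991 higher (22.3%) and 5383 lower (24.0%). NUP82 transcripts were at 21.6 CPM in the libraries labelled nup82 but at 27.5 to 37.1 CPM in the other genotypes that carry that label, against 32.2 CPM in WT. These 4 comparisons share no library. Across all genes, which are not independent replicates, the log2 fold changes in nup50c correlated with those in WT at Pearson r = 0.31, in nup82 at 0.44 and in nup50c nup82 at 0.52. Of the 6050 genes called in nup50c, 5119 (84.6%) had the same sign in WT. In both backgrounds 2019 genes were called, 33.4% of those called in nup50c and 62.5% of those called in WT. In all 4 backgrounds 942 genes were called, 314 higher and 525 lower in each and 103 in mixed directions. Another 848 were called in nup50c alone, which does not show that their change differed between backgrounds.

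The difference between the change in nup50c and the change in WT was itself tested. It was called in 1159 genes (5.17%), 550 with a higher (2.45%) and 609 with a lower (2.72%) fold change in nup50c. Without WT replicate 2 fewer genes were called and the larger direction turned. Of the 881 that were also called in nup50c, 402 moved the same way in both backgrounds, 382 of them further in nup50c, and 479 had opposite signs. Asking for a call in nup50c favours genes with a large change there. The other 278 were not called in nup50c, and 255 of them were called in WT. There were 140 genes called in both backgrounds in opposite directions, of which 52 were higher with the loss of NUP136 in nup50c and 88 were lower. All 140 passed the test of the difference, which adds nothing, since 2 called changes of opposite sign add up in that difference.

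**Figure D2:**
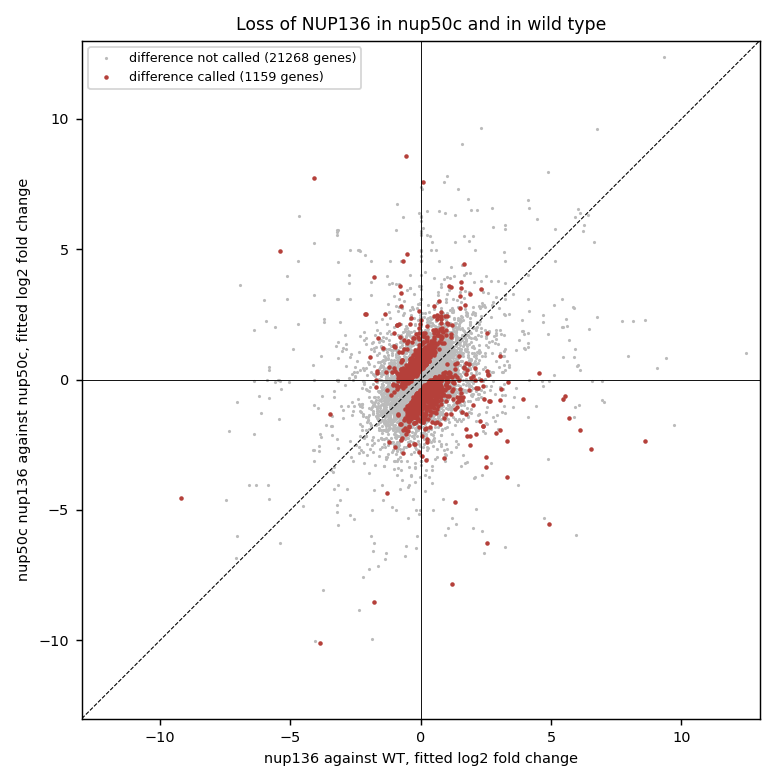
Fitted log2 fold change of every tested gene for the loss of NUP136 in WT (horizontal axis) and in nup50c (vertical axis), with the line of equal change dashed. The 1159 genes whose change differed between the backgrounds are dark, and Pearson r over all 22427 genes was 0.31; points far from 0 include genes with 0 counts in 1 group, whose fitted values are no bounds.

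Enzymes, defensins and a membrane protein were among the 10 largest falls. AT5G37990, a probable methyltransferase (chromosome 5, 15133867 to 15135169), had 85.9 and 90.9 CPM in nup50c and 5.00 and 2.65 CPM in nup50c nup136 and fell 23.1-fold (log2 fold change -4.54 ± 0.25, adjusted p = 3.5e-07). It was also low in nup136, at 91.8 and 85.1 CPM in WT and 0.184 and 0.105 CPM in nup136. CYP76G1, a cytochrome P450 (chromosome 3, 19641278 to 19643282), had 4.06 and 2.4 CPM in nup50c and 0 and 0 CPM in nup50c nup136. It was at least 48.2-fold lower in the double mutant, taking 3 counts per library as the limit that a count of 0 allows (adjusted p = 1.99e-07). CYP93D1, another P450, had 2.70 and 3.45 CPM in nup50c and 0.0927 and 0.0862 CPM in nup50c nup136 and fell 34.4-fold (adjusted p = 5.29e-07). AT1G52820, a probable 2-oxoglutarate-dependent dioxygenase, had 15.9 and 15.0 CPM in nup50c and 1.76 and 1.57 CPM in nup50c nup136 and fell 9.26-fold (adjusted p = 2.36e-09). These 4 genes also fell in nup136 against WT (log2 fold changes -9.20, -3.86, -3.23 and -2.16).

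PCR1, whose protein sits in membranes and gives cadmium resistance, went in opposite directions in nup50c and in WT. It had 4.46 and 3.98 CPM in nup50c and 0 and 0.172 CPM in nup50c nup136, so both libraries of the double mutant were close to 0, and it fell 48.9-fold (adjusted p = 9.89e-05). In WT it rose from 0.0452 and 0.266 CPM in WT to 5.11 and 4.03 CPM in nup136 (adjusted p = 0.00035), and the difference was -10.44 ± 1.07 on the log2 scale (adjusted p = 2.54e-05). Its log2 fold change was -5.24 in the libraries labelled nup82 and -10.25 in nup50c nup82. The glycosyltransferase gene AT2G22590 fell 18.5-fold, from 4.44 and 4.93 CPM to 0.463 and 0.0431 CPM (adjusted p = 3.92e-05). AT4G07820, of the cysteine-rich secretory family, fell 10.2-fold, from 3.66 and 3.74 CPM to 0.463 and 0.259 CPM (adjusted p = 1.25e-06). The receptor-like kinase gene AT1G07550 fell 9.98-fold, from 3.88 and 2.76 CPM to 0.278 and 0.388 CPM (adjusted p = 3.62e-06). None of these falls lost its call when any 1 library was left out.

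The largest rises included transcripts that nup50c lacked. AT5G37140, which carries the AAA domains of a helicase (chromosome 5, 14690436 to 14692851), had 0 and 0 CPM in nup50c and 14.5 and 16.9 CPM in nup50c nup136 and was at least 227-fold higher in the double mutant (adjusted p = 9.66e-13). It had 0 and 0.106 CPM in WT and 32.9 and 34.2 CPM in nup136, so it was near 0 wherever NUP136 was intact in these 4 genotypes. NUDT24, a Nudix hydrolase, had 1.65 and 1.24 CPM in nup50c and 53.0 and 43.7 CPM in nup50c nup136 and rose 33.5-fold (adjusted p = 3.05e-05). It also rose in WT (log2 fold change 4.17), and its log2 fold change in nup50c nup82 was 0.43. NRT1.8, which takes nitrate out of the xylem, rose 12.2-fold, from 3.79 and 3.21 CPM to 35.4 and 50.2 CPM (adjusted p = 1.86e-07). Its rise in nup136 was smaller, from 4.97 and 3.72 CPM in WT to 9.99 and 8.70 CPM in nup136, with a difference of 2.51 ± 0.34 (adjusted p = 0.000609), and the call in WT was lost leaving out WT replicate 2 or nup136 replicate 1 (adjusted p = 0.0785 and 0.0689). LTP4, a lipid transfer protein, had 0.803 and 1.62 CPM in nup50c and 23.4 and 12.3 CPM in nup50c nup136 and rose 14.7-fold (adjusted p = 0.00979), a call that was lost without nup50c replicate 1 (adjusted p = 0.0814).

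The other 6 of the 10 largest rises follow. NDB4, an alternative NADH dehydrogenase of mitochondria, rose 13.7-fold, from 0.335 and 0.190 CPM to 3.54 and 3.66 CPM (adjusted p = 1.83e-07). HA9, a plasma membrane proton pump, rose 14.0-fold, from 0.134 and 0.143 CPM to 1.97 and 1.90 CPM (adjusted p = 0.000215). GSTF5, a glutathione S-transferase, rose 11.8-fold, from 0.357 and 0.429 CPM to 4.38 and 4.91 CPM (adjusted p = 5.66e-08). AT2G17850, a protein with a rhodanese-like domain, rose 12.2-fold, from 0.669 and 0.167 CPM to 5.07 and 5.09 CPM (adjusted p = 2.61e-07). The AAA-ATPase gene AT4G05380 was at 0 in both nup50c libraries and at 2.87 and 1.94 CPM in nup50c nup136, at least 34.8-fold higher (adjusted p = 0.000657). AT4G12735, with no description in the deposited annotation, was at 0 and at 1.07 and 2.07 CPM, at least 22.7-fold higher (adjusted p = 0.0123). That last call was lost without nup50c nup136 replicate 2, nup50c replicate 1 or nup50c replicate 2 (adjusted p = 0.0628, 0.071 and 0.063).

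Genes were then grouped into 34 lists of pathways and markers with 583 genes, of which 560 were tested, 107 rose and 159 fell. The lists are set against the shares of all genes, 12.9% higher and 14.1% lower with a median of 0.01. In 33 of them at least 1 member was called. MYC2 and CRWN4 were listed at 0 counts in all 16 libraries and are not described.

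**Figure D3:**
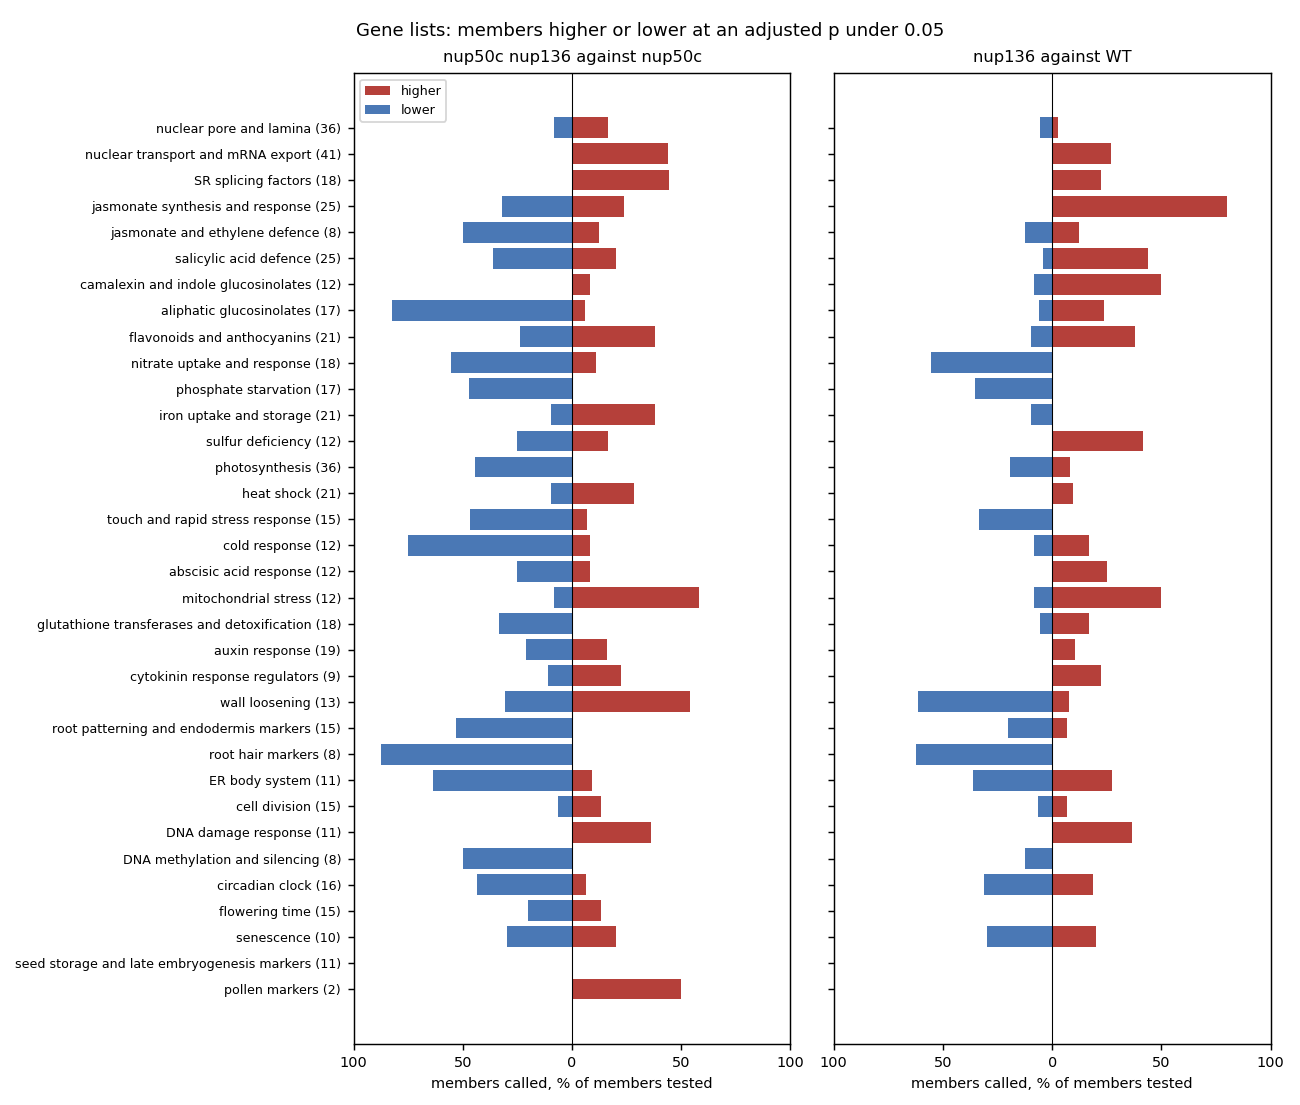
Share of tested members of each list (number tested in brackets) that were called higher (right of 0) or lower (left of 0) with the loss of NUP136 in nup50c and in WT. In the aliphatic glucosinolate list 14 of 17 members were lower in nup50c and 1 in WT; in the jasmonate list 6 were higher and 8 lower in nup50c, and 20 higher in WT.

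The machinery of nuclear transport moved up in part. Of the transport and mRNA export list, 18 of 41 tested members rose and 0 fell (median log2 fold change 0.16). RAN1, a Ran GTPase, rose 2.68-fold, from 262 and 272 CPM in nup50c to 654 and 774 CPM in nup50c nup136 (log2 fold change 1.42 ± 0.08, adjusted p = 1.6e-12). RAN2, a second Ran gene, rose 2.05-fold, from 241 and 255 CPM to 506 and 511 CPM (adjusted p = 7.58e-10). XPO1B, an exportin that carries proteins with export signals, rose 2.58-fold, from 27.6 and 25.1 CPM to 69.6 and 66.4 CPM (adjusted p = 2.15e-10). NTF2B, which returns Ran to the nucleus, rose 2.16-fold, from 71.6 and 72.0 CPM to 155 and 156 CPM (adjusted p = 3.02e-10). These 4 genes rose further in nup50c than in WT, where their log2 fold changes were 0.83, 0.50, 0.64 and 0.28, and each difference passed its test (adjusted p = 0.00119, 0.00499, 0.00187 and 4.21e-05). That of RAN2 was lost leaving out WT replicate 2 (adjusted p = 0.0721). UAP56A and UAP56B, helicases of mRNA export, also rose, by 0.67 and 0.62 on the log2 scale, as did the Ran-binding protein RANBP1A, by 0.54 (chosen after their values were seen). Near-identical copies such as RAN1 and RAN2 can share reads, and how such reads were counted is not given in the sources used here. The importin alpha IMPA7 had a log2 fold change of -0.45 and the THO subunit HPR1 of -0.13, neither of them called.

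Of the nuclear pore and lamina genes, 6 of 36 tested members rose and 3 fell (median log2 fold change -0.019, or -0.053 leaving out nup50c nup136 replicate 1, 0.023 leaving out nup50c nup136 replicate 2, 0.025 leaving out nup50c replicate 1 and -0.035 leaving out nup50c replicate 2). NUP98B, an FG-repeat nucleoporin, rose 3.29-fold, from 11.7 and 10.3 CPM to 38.4 and 34.1 CPM (adjusted p = 5.64e-10). RAE1, an mRNA export factor at the pore, rose 2.06-fold, from 34.8 and 33.4 CPM to 68.3 and 72.1 CPM (adjusted p = 2.09e-09), further than in WT (difference 0.79 ± 0.13, adjusted p = 0.000165). The membrane nucleoporin NDC1 rose 1.57-fold, from 12.8 and 11.1 CPM to 19.4 and 18.3 CPM (adjusted p = 0.000161). NUP136 itself was the largest of the 3 falls. Most members lay close to 0, among them the basket and lamina genes NUP50A, KAKU4 and CRWN1 (log2 fold changes 0.15, -0.13 and 0.05). Fewer passed leaving out nup50c nup136 replicate 2 or either nup50c library, but not leaving out nup50c nup136 replicate 1.

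SR proteins bind pre-mRNA and guide the choice of splice sites. Here 8 of 18 tested members rose and 0 fell (median log2 fold change 0.18, or 0.08 leaving out nup50c nup136 replicate 2). RS31A rose 3.31-fold, from 10.7 and 8.60 CPM to 27.2 and 36.8 CPM (adjusted p = 1.52e-08), and its rise was larger than in WT (difference 1.11 ± 0.22, adjusted p = 0.00229). SCL33 rose 1.39-fold, from 47.0 and 42.7 CPM to 66.4 and 58.2 CPM (adjusted p = 0.000473), and RS2Z33 1.25-fold, from 54.7 and 54.9 CPM to 72.4 and 64.3 CPM (adjusted p = 0.00504). RSZ22A rose 1.27-fold, from 51.9 and 50.7 CPM to 60.7 and 70.0 CPM (adjusted p = 0.0101). The call of RSZ22A was lost without nup50c nup136 replicate 2, nup50c replicate 1 or nup50c replicate 2 (adjusted p = 0.185, 0.0514 and 0.066), and that of RS2Z33 without nup50c nup136 replicate 1 (adjusted p = 0.111). List counts were 4 and 0 leaving out nup50c nup136 replicate 2, nup50c replicate 1 or nup50c replicate 2.

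Jasmonates are oxylipin hormones of wounding and defence: lipoxygenases and cyclases make them, and JAZ proteins repress their targets until the hormone binds. In this list 6 of 25 tested members rose and 8 fell (median log2 fold change -0.64, or -0.21 leaving out nup50c replicate 1), whereas 20 and 0 members were higher and lower in nup136 against WT (median 1.75). The difference was called in 16 members, each lower in nup50c. Loss of NUP136 gave 5 higher and 5 lower in the libraries labelled nup82 (median -0.13). In nup50c nup82 it gave 5 and 11 (median -0.52). ORA47, a factor that activates jasmonate synthesis genes, fell 8.56-fold, from 14.1 and 14.1 CPM in nup50c to 1.83 and 1.47 CPM in nup50c nup136 (adjusted p = 4.12e-09). It stood at 2.13 and 1.62 CPM in WT and 2.85 and 1.48 CPM in nup136, so nup50c was the high genotype among the 4. JAZ7, a repressor, fell 4.27-fold, from 13.3 and 6.91 CPM to 2.11 and 2.63 CPM (adjusted p = 1.43e-05), and rose from 2.83 and 1.60 CPM in WT to 10.9 and 8.25 CPM in nup136 (adjusted p = 3.8e-05). LOX4, a lipoxygenase, fell 3.02-fold, from 20.3 and 18.4 CPM to 6.58 and 6.23 CPM (adjusted p = 0.000268), and rose from 11.0 and 7.98 CPM in WT to 52.5 and 40.1 CPM in nup136 (adjusted p = 2.32e-05); it was chosen after its values were seen.

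Other members of the same list rose in both backgrounds. CORI3, a cystine lyase induced by jasmonate, rose 3.71-fold, from 45.2 and 40.7 CPM to 164 and 155 CPM (adjusted p = 1.02e-13), and 3.12-fold in WT. VSP2, a storage protein and anti-insect phosphatase, rose 3.20-fold, from 73.5 and 60.4 CPM to 239 and 190.2 CPM (adjusted p = 0.0134), and 4.93-fold in WT. LOX2, a chloroplast lipoxygenase chosen after its values were seen, rose 2.92-fold, from 473 and 414 CPM to 1335 and 1259 CPM (adjusted p = 1.73e-12), to a level close to that of nup136, at 1208 and 1464 CPM. The differences for CORI3, VSP2 and LOX2 did not pass the test (adjusted p = 0.32, 0.661 and 0.435). Members higher and lower were 7 and 15 with no filter on low counts, 2 and 5 leaving out nup50c nup136 replicate 1, 3 and 4 leaving out nup50c replicate 1 and 2 and 6 leaving out nup50c replicate 2. The call of VSP2 was lost without nup50c nup136 replicate 1, nup50c replicate 1 or nup50c replicate 2 (adjusted p = 0.0616, 0.0585 and 0.088), and in WT leaving out WT replicate 1 (adjusted p = 0.0516).

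**Figure D4:**
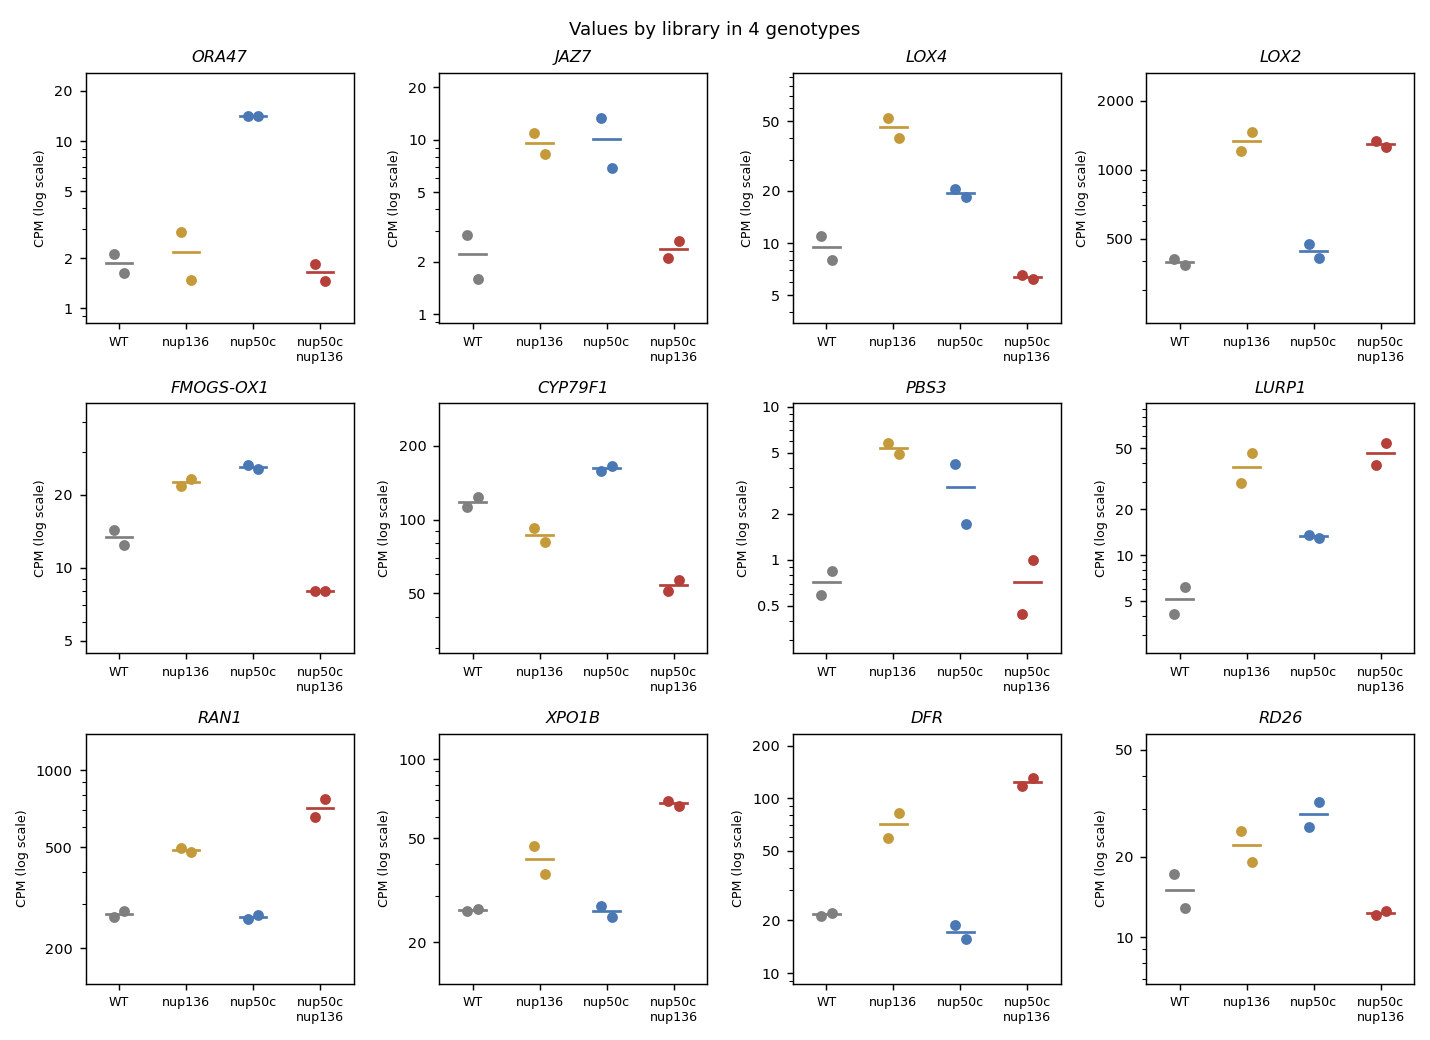
CPM on log axes of 12 genes in WT, nup136, nup50c and nup50c nup136, with 1 point per library and lines at the means. ORA47, JAZ7, LOX4, FMOGS-OX1, CYP79F1, PBS3 and RD26 were lower in nup50c nup136 than in nup50c; LOX2, LURP1, RAN1, XPO1B and DFR were higher.

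Defensins that respond to jasmonate and ethylene together were among the largest falls. Of 8 members 1 rose and 4 fell (median log2 fold change -2.01). The list as a whole nevertheless summed to more, from 138 and 124 CPM in nup50c to 200 and 176 CPM in nup50c nup136. PDF1.4, of the plant defensin family but not in this list, was higher in both nup50c nup136 libraries than in both nup50c libraries. PDF1.2A had 6.11 and 1.90 CPM in nup50c and 0.185 and 0.0862 CPM in nup50c nup136 and fell 29.5-fold (adjusted p = 0.00808). PDF1.2B had 1.74 and 1.00 CPM in nup50c and 0 and 0 CPM in nup50c nup136, at least 20.4-fold lower (adjusted p = 0.00393). PDF1.2C had 5.53 and 0.381 CPM in nup50c and 0 and 0 CPM in nup50c nup136, at least 44.1-fold lower (adjusted p = 0.0436), and PDF1.3 fell 7.83-fold, from 4.04 and 5.10 CPM to 0.973 and 0.194 CPM (adjusted p = 0.00648). The PDF1.2 genes are near-identical copies whose reads may be split between them, and the 2 nup50c libraries differed more than 10-fold for PDF1.2C. PDF1.2A lost its call without nup50c nup136 replicate 1 or nup50c nup136 replicate 2 (adjusted p = 0.0556 and 0.0942) and PDF1.2C in a model of these genotypes alone, without nup50c nup136 replicate 1, nup50c nup136 replicate 2 or nup50c replicate 1 (adjusted p = 0.353, 0.134, 0.162 and 0.111). PR4, a chitin-binding protein chosen after its values were seen, rose 1.67-fold (adjusted p = 0.0254), a call that was lost leaving out nup50c nup136 replicate 1, nup50c nup136 replicate 2, nup50c replicate 1 or nup50c replicate 2 (adjusted p = 0.126, 0.0684, 0.115 and 0.116). Members called higher and lower numbered 0 and 2 leaving out nup50c nup136 replicate 1 or nup50c nup136 replicate 2 and 0 and 3 leaving out nup50c replicate 1.

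Salicylic acid is the hormone of resistance to biotrophic pathogens. Of its list 5 of 25 tested members rose and 9 fell (median log2 fold change -0.28, or -0.43 leaving out nup50c nup136 replicate 2 and 0.075 leaving out nup50c replicate 1), against 11 and 1 in WT, and the difference was called in 9 members, and in 4 without WT replicate 2. PBS3, an enzyme of salicylic acid synthesis, fell 4.14-fold, from 4.22 and 1.71 CPM to 0.440 and 0.991 CPM (adjusted p = 0.000526), while it rose from 0.588 and 0.851 CPM in WT to 5.82 and 4.90 CPM in nup136 (adjusted p = 2.1e-05). PNP-A, a natriuretic peptide-like protein chosen after its values were seen, fell 3.45-fold, from 5.22 and 2.79 CPM to 1.44 and 0.884 CPM (adjusted p = 0.000211), and rose from 1.18 and 0.957 CPM in WT to 5.89 and 5.19 CPM in nup136 (adjusted p = 1.82e-05). ALD1, which makes the signal pipecolic acid, fell 4.05-fold, from 1.92 and 1.40 CPM to 0.649 and 0.172 CPM (adjusted p = 0.0312). The transcription factor WRKY18 rose 3.60-fold, from 74.5 and 42.8 CPM to 192 and 230.3 CPM (adjusted p = 0.00101), and LURP1, a gene of resistance to downy mildew, rose 3.49-fold, from 13.6 and 13.0 CPM to 38.6 and 54.3 CPM (adjusted p = 0.00341). The marker gene PR1 spread widely between replicates, with 24.4 and 3.48 CPM in nup50c and 1.71 and 2.67 CPM in nup50c nup136 (adjusted p = 0.147). With no filter on low counts edgeR called PR1 lower (log2 fold change -2.65, adjusted p = 6.04e-52). That p-value does not reflect the spread between these libraries, and nothing is drawn from the call. ALD1 lost its call without nup50c nup136 replicate 2, nup50c replicate 1 or nup50c replicate 2 (adjusted p = 0.251, 0.147 and 0.0603) and WRKY18 in a model of these genotypes alone (adjusted p = 0.0802). The list counts were 4 and 5 leaving out nup50c nup136 replicate 1. Those in WT were 7 and 1 leaving out WT replicate 2.

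Camalexin is the main indole phytoalexin of Arabidopsis. Of its list with the indole glucosinolates 1 of 12 tested members rose and 0 fell (median log2 fold change 0.015, or 0.13 leaving out nup50c nup136 replicate 1, -0.12 leaving out nup50c nup136 replicate 2 and 0.025 leaving out nup50c replicate 2), against 6 and 1 in WT, with 5 members differing, or 3 without WT replicate 2, nup50c nup136 replicate 1 or nup50c replicate 2. GSTF6, a glutathione S-transferase of the pathway, rose 3.94-fold, from 67.3 and 76.4 CPM to 234 and 332 CPM (adjusted p = 0.000718). CYP79B3, which makes indole-3-acetaldoxime, had a log2 fold change of -0.01 (adjusted p = 0.987) in nup50c and rose by 1.47 in WT (difference -1.47 ± 0.22, adjusted p = 0.00187; chosen after its values were seen). The numbers higher and lower were 2 and 2 with no filter on low counts and 1 and 1 in a model of these genotypes alone or leaving out nup50c nup136 replicate 1.

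Aliphatic glucosinolates are sulfur-rich defence compounds made from methionine. In this list 1 of 17 tested members rose and 14 fell (median log2 fold change -0.63), against 4 and 1 in WT. The difference from WT was called in 13 members, each lower in nup50c. The fall was not particular to nup50c. Loss of NUP136 gave 1 higher and 15 lower in the libraries labelled nup82 (median -0.85). In nup50c nup82 it gave 1 and 13 (median -0.98). MYB76, a transcription factor of the pathway, fell 5.27-fold, from 2.74 and 2.95 CPM in nup50c to 0.371 and 0.711 CPM in nup50c nup136 (adjusted p = 0.000101). FMOGS-OX1, which oxidises the side chain, fell 3.25-fold, from 26.4 and 25.6 CPM to 8.02 and 7.99 CPM (adjusted p = 1.21e-09), but rose from 14.4 and 12.4 CPM in WT to 21.8 and 23.3 CPM in nup136 (adjusted p = 0.000329). The entry enzyme of the core pathway, CYP79F1, fell 2.99-fold, from 159 and 165 CPM to 51.2 and 57.0 CPM (adjusted p = 2.47e-12). It also fell in WT (log2 fold change -0.45, adjusted p = 0.000892), less than in nup50c (difference -1.13 ± 0.13, adjusted p = 1.84e-06). FMOGS-OX3 fell 2.02-fold, from 51.3 and 56.5 CPM to 26.3 and 27.0 CPM (adjusted p = 3.22e-06). Chain elongation followed the same direction, with log2 fold changes of -0.72 for MAM1 and -0.94 for BCAT4, and so did the transporter BAT5 (-0.83) and the sulfotransferase SOT18 (-0.70). MYB28, a second regulator, was the member that rose, by 0.51 (adjusted p = 0.000115). These last 5 genes were chosen after their values were seen. With 1 library left out, 1 member was higher and between 12 and 13 were lower.

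The ER body is an endoplasmic reticulum compartment that stores beta-glucosidases against herbivores. Of its list 1 of 11 tested members rose and 7 fell (median log2 fold change -0.58), against 3 and 4 in WT (median 0.015). The list summed to 4977 and 5541 CPM in nup50c and to 3265 and 3331 CPM in nup50c nup136. It summed to 4817 and 4604 CPM in WT and to 3740 and 3484 CPM in nup136. BGLU21 fell 2.22-fold, from 271 and 287 CPM to 139 and 112 CPM (adjusted p = 1.24e-08), and BGLU22 1.86-fold, from 131 and 144 CPM to 80.5 and 67.4 CPM (adjusted p = 6.99e-08); they are close copies. PYK10, the main ER body glucosidase of roots, fell 1.81-fold, from 3011 and 3439 CPM to 1729 and 1838 CPM (adjusted p = 8.64e-08). NAI1, the factor that controls ER body genes, fell 1.70-fold, from 36.6 and 39.9 CPM to 22.0 and 23.1 CPM (adjusted p = 3.39e-05), and rose from 35.0 and 28.8 CPM in WT to 50.8 and 43.9 CPM in nup136 (difference -1.33 ± 0.17, adjusted p = 1.11e-05; chosen after its values were seen). Its call in WT was lost leaving out WT replicate 2 (adjusted p = 0.0561). JAL23, a jacalin lectin, rose 5.68-fold, from 5.04 and 4.07 CPM to 20.3 and 31.5 CPM (adjusted p = 6.55e-06), and rose also in WT (log2 fold change 3.38).

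Anthocyanins are made by late flavonoid enzymes under the control of MYB and bHLH factors. Of the list 8 of 21 tested members rose and 5 fell (median log2 fold change 0.15, or 0.079 with no filter on low counts, 0.32 leaving out nup50c nup136 replicate 2 and 0.46 leaving out nup50c replicate 1), and 8 and 2 were higher and lower in WT. DFR, the first committed enzyme of the branch, rose 7.22-fold, from 18.8 and 15.6 CPM in nup50c to 118 and 130.3 CPM in nup50c nup136 (log2 fold change 2.85 ± 0.12, adjusted p = 1.02e-13). LDOX, the next enzyme, rose 6.68-fold, from 14.5 and 12.7 CPM to 80.3 and 101 CPM (adjusted p = 2.41e-08). TT19, a glutathione S-transferase that carries anthocyanin to the vacuole, rose 5.88-fold, from 9.24 and 8.31 CPM to 45.0 and 58.1 CPM (adjusted p = 2.13e-06). The acyltransferase 5MAT rose 4.58-fold, from 3.64 and 1.95 CPM to 11.7 and 13.9 CPM (adjusted p = 0.00012). DFR and LDOX rose further in nup50c than in WT (differences 1.14 ± 0.16 and 1.23 ± 0.24, adjusted p = 7.28e-05 and 0.00545), and LDOX lost this call in a model of these genotypes alone (adjusted p = 0.0572). MYB12, an activator of the flavonol branch, fell 2.50-fold, from 7.27 and 5.93 CPM to 2.53 and 2.76 CPM (adjusted p = 0.000232; chosen after its values were seen). CHS, the first enzyme of all flavonoids, and PAP1, an anthocyanin regulator, had log2 fold changes of -0.07 and -0.03, not called. Counts were 8 and 3 leaving out nup50c nup136 replicate 1. In WT they were 6 and 1 leaving out WT replicate 1, 8 and 1 leaving out nup136 replicate 1 and 5 and 1 leaving out nup136 replicate 2.

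Most called genes of the nitrate uptake and response list fell in both backgrounds. The nitrate transporter gene NRT1.8, which rose in both backgrounds as given above, is not in this list. In nup50c 2 of 18 tested members rose and 10 fell (median log2 fold change -0.49), and in WT the counts were 0 and 10. HHO2, a nitrate-induced repressor, fell 2.07-fold, from 66.5 and 68.3 CPM to 32.3 and 32.9 CPM (adjusted p = 4.97e-09). BT1, a nitrate-responsive BTB protein, fell 2.06-fold, from 82.6 and 92.0 CPM to 47.7 and 37.2 CPM (adjusted p = 3.27e-07). NIA1, a nitrate reductase, fell 1.95-fold, from 354 and 359.9 CPM to 205 and 161 CPM (adjusted p = 3.22e-07). HRS1, a relative of HHO2, fell 1.82-fold, from 38.3 and 41.0 CPM to 22.9 and 20.7 CPM (adjusted p = 2.36e-06). The root ferredoxin reductase RFNR1 rose by 0.53 on the log2 scale (adjusted p = 7.09e-05; chosen after its values were seen). HHO2 fell further than in WT (difference -0.78 ± 0.13, adjusted p = 0.00033), and the change of RFNR1 was higher than in WT (difference 0.49 ± 0.13, adjusted p = 0.0183). The latter was lost leaving out WT replicate 2, nup136 replicate 1, nup50c nup136 replicate 1 or nup50c replicate 1 (adjusted p = 0.095, 0.0773, 0.0893 and 0.098). Members higher and lower were 1 and 9 leaving out nup50c nup136 replicate 2 or nup50c replicate 1 and 1 and 10 leaving out nup50c replicate 2.

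Phosphate starvation genes that were called also fell: 0 of 17 tested members rose and 8 fell (median log2 fold change -0.59), and 0 and 6 were higher and lower in WT. MGD3, which makes galactolipids when phosphate is short, fell 3.58-fold, from 15.2 and 17 CPM to 6.42 and 2.59 CPM (adjusted p = 0.000124). GDPD1, a phosphodiesterase, fell 2.27-fold, from 25.5 and 27.4 CPM to 14.9 and 8.40 CPM (adjusted p = 0.000126). SPX3, a phosphate sensor protein, fell 2.67-fold, from 2.43 and 3.24 CPM to 1.37 and 0.754 CPM (adjusted p = 0.0178), and the transporter PHT1;4 1.62-fold, from 28.3 and 25.7 CPM to 18.0 and 15.3 CPM (adjusted p = 0.00028). SPX3 lost its call without nup50c nup136 replicate 2 or nup50c replicate 2 (adjusted p = 0.189 and 0.119). The counts were 1 and 13 with no filter on low counts and 0 and 5 leaving out nup50c nup136 replicate 2 or nup50c replicate 2. Those in WT were 0 and 3 leaving out WT replicate 2 and 0 and 2 leaving out nup136 replicate 2.

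Iron genes moved in both directions. Of this list 8 of 21 tested members rose and 2 fell (median log2 fold change 0.33), against 0 and 2 in WT. IMA1, a signal peptide of iron shortage, rose 7.72-fold, from 0.937 and 0.762 CPM in nup50c to 6.39 and 6.72 CPM in nup50c nup136 (adjusted p = 0.00393). BHLH38 and BHLH39, factors of iron uptake, rose from 0.0669 and 0.333 CPM to 1.85 and 0.927 CPM and from 0.357 and 0.286 CPM to 2.55 and 0.819 CPM (adjusted p = 0.0179 and 0.00528). NAS2, which makes the metal chelator nicotianamine, rose 4.45-fold, from 0.759 and 0.476 CPM to 3.31 and 2.18 CPM (adjusted p = 0.00033), with a difference from WT of 2.16 ± 0.55 (adjusted p = 0.0183). FIT, the partner of BHLH38 and BHLH39, fell 2.86-fold, from 8.10 and 8.17 CPM to 2.76 and 2.93 CPM (adjusted p = 2.24e-05), with a difference of -1.41 ± 0.32 (adjusted p = 0.00778; chosen after its values were seen). The difference of NAS2 was lost leaving out WT replicate 2, nup136 replicate 2, nup50c nup136 replicate 1 or nup50c replicate 2 (adjusted p = 0.102, 0.089, 0.0992 and 0.107). The transporter IRT1 had a log2 fold change of 2.00 (adjusted p = 0.178). IMA1 lost its call without nup50c replicate 2 (adjusted p = 0.0502), BHLH38 without nup50c nup136 replicate 1 or nup50c replicate 1 (adjusted p = 0.124 and 0.174) and BHLH39 without nup50c nup136 replicate 1 or nup50c replicate 2 (adjusted p = 0.178 and 0.0551). List counts were 3 and 2 leaving out nup50c nup136 replicate 1, 5 and 2 leaving out nup50c nup136 replicate 2 and 4 and 2 leaving out nup50c replicate 1 or nup50c replicate 2. In WT they were 0 and 1 leaving out WT replicate 2 and 0 and 0 leaving out nup136 replicate 2.

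Sulfur deficiency genes showed no common direction: 2 of 12 tested members rose and 3 fell (median log2 fold change 0.13, or 0.058 leaving out nup50c nup136 replicate 1, -0.067 leaving out nup50c replicate 1 and 0.25 leaving out nup50c replicate 2). SULTR1;1, a root sulfate transporter, fell 2.60-fold, from 2.05 and 2.33 CPM to 0.741 and 0.948 CPM (adjusted p = 0.0091). APR1, which reduces sulfate, fell 1.53-fold, from 165 and 204 CPM to 110.5 and 132 CPM (adjusted p = 2.58e-05). LSU2 and BGLU28, both induced by low sulfur, rose from 20.4 and 27.4 CPM to 40.5 and 42.1 CPM and from 5.78 and 7.71 CPM to 11.4 and 9.81 CPM (adjusted p = 0.000158 and 0.0238). SULTR1;1 lost its call without nup50c nup136 replicate 1 or nup50c replicate 2 (adjusted p = 0.0729 and 0.0581) and BGLU28 without nup50c nup136 replicate 1 or nup50c replicate 1 (adjusted p = 0.155 and 0.254). The counts were 4 and 3 with no filter on low counts, 1 and 2 leaving out nup50c nup136 replicate 1, 1 and 4 leaving out nup50c replicate 1 and 3 and 1 leaving out nup50c replicate 2.

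Photosynthesis genes that were called fell. Of 36 members 0 rose and 16 fell (median log2 fold change -0.16), and 3 and 7 were higher and lower in WT. LHCB1.1, a light-harvesting protein of photosystem II, fell 1.61-fold, from 2705 and 2568 CPM to 1708 and 1574 CPM (adjusted p = 8.02e-08), and stood at 2481 and 2596 CPM in WT and 2528 and 2364 CPM in nup136 (difference -0.63 ± 0.10, adjusted p = 0.000191). PSAF, a photosystem I subunit, fell 1.40-fold, from 2064 and 1978 CPM to 1433 and 1455 CPM (adjusted p = 9.71e-06). RBCS3B, a Rubisco small subunit, fell 1.38-fold, from 5894 and 5775 CPM to 4544 and 3885 CPM (adjusted p = 7.68e-05). LHCB1.2 fell 1.3-fold, from 3808 and 3855 CPM to 3067 and 2849 CPM (adjusted p = 0.000362), and rose in WT by 0.33 on the log2 scale. LHCB1 and RBCS genes are close copies that can share reads. Members called higher and lower numbered 0 and 10 leaving out nup50c replicate 1 and 0 and 8 leaving out nup50c replicate 2. Those in WT were 1 and 6 leaving out WT replicate 1, 2 and 4 leaving out nup136 replicate 1 and 1 and 7 leaving out nup136 replicate 2.

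Cold response genes fell, with 1 exception among those called. Of the list 1 of 12 tested members rose and 9 fell (median log2 fold change -0.74), and 5 members differed from WT, each lower in nup50c, or 3 without WT replicate 1, WT replicate 2 or nup50c nup136 replicate 1 and 2 without nup50c replicate 2. CBF1, CBF2 and CBF3 are neighbouring copies of the factors that switch on cold genes by binding the dehydration-responsive element. CBF1 fell 19.8-fold, from 0.803 and 0.905 CPM to 0 and 0.0862 CPM (adjusted p = 0.00046). CBF2 fell 5.66-fold, from 1.94 and 2.52 CPM to 0.185 and 0.603 CPM (adjusted p = 8.53e-05), and CBF3 5.77-fold, from 0.803 and 1.26 CPM to 0.185 and 0.172 CPM (adjusted p = 0.0128). KIN1, a cold-induced protein, fell 3.66-fold, from 15.8 and 20.2 CPM to 5.26 and 4.59 CPM (adjusted p = 2.25e-08). RD29A fell 1.89-fold, from 80.0 and 103 CPM to 42.9 and 54.0 CPM (adjusted p = 1.96e-05), and GOLS3, which makes galactinol, fell 3.25-fold, from 1.29 and 2.1 CPM to 0.417 and 0.625 CPM (adjusted p = 0.0195). COR15A, a chloroplast protein that guards membranes against freezing, rose 3.23-fold, from 31.6 and 34.2 CPM to 100.1 and 112 CPM (adjusted p = 0.00181). RD29A, GOLS3 and COR15A were chosen after their values were seen. CBF3 lost its call without nup50c nup136 replicate 1, nup50c nup136 replicate 2 or nup50c replicate 2 (adjusted p = 0.0672, 0.0942 and 0.104) and GOLS3 leaving out nup50c nup136 replicate 1, nup50c nup136 replicate 2 or nup50c replicate 2 (adjusted p = 0.126, 0.0517 and 0.169), and the counts were 2 and 9 with no filter on low counts or in a model of these genotypes alone and 1 and 5 leaving out nup50c nup136 replicate 1 or nup50c replicate 2.

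The promoters of these last 3 genes are shown because they share the core of that element and yet the genes moved in opposite directions. Each is the 250 bases before the annotated gene start, read 5′ to 3′ on the gene's strand from the TAIR10.1 genome of RefSeq. Capitals mark CCGAC and CACGTG, the G-box, on either strand, and overlapping matches merge. COR15A lies at chr2:17712331-17712580, minus strand, GOLS3 at chr1:3019389-3019638, plus strand and RD29A at chr5:21240467-21240716, plus strand.
COR15A: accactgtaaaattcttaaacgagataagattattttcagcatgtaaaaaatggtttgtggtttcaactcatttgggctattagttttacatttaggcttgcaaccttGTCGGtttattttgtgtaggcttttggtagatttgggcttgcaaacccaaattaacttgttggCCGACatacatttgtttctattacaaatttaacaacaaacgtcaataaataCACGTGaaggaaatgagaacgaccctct
GOLS3: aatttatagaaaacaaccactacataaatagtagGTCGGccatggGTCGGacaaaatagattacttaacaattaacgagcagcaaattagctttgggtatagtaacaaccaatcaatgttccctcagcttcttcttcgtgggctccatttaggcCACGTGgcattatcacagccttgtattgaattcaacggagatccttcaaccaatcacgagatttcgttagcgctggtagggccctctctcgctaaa
RD29A: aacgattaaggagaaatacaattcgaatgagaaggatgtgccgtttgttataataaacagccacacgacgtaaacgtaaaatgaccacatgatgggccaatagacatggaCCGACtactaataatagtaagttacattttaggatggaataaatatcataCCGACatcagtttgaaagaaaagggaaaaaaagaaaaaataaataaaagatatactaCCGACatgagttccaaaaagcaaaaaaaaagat
CCGAC occurred 2 times in the windows of COR15A and GOLS3 and 3 times in that of RD29A. In all it lay in 3 of the 12 promoters of the list, and in 12.6% of 21534 promoters of protein-coding genes tested. Among called genes it lay in 345 of 2843 promoters of those higher (12.1%) and 376 of 3144 of those lower (12.0%). A match describes the letters and is not evidence of binding.

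Several clock genes fell. Of the list 1 of 16 tested members rose and 7 fell (median log2 fold change -0.35). LNK1, a coactivator in the clock, fell 1.81-fold, from 37.1 and 34.5 CPM to 23.9 and 15.6 CPM (adjusted p = 6.73e-05). GI, which links the clock to flowering, fell 1.63-fold, from 136 and 125 CPM to 83.5 and 76.5 CPM (adjusted p = 2.54e-06). FKF1, a blue light receptor, fell 1.62-fold, from 54.2 and 65.2 CPM to 34.5 and 39.1 CPM (adjusted p = 0.0029), and PRR5, a clock repressor, 1.60-fold, from 70.6 and 81.1 CPM to 48.1 and 46.8 CPM (adjusted p = 6.9e-06). TOC1, another repressor, fell 1.34-fold, from 189 and 199.7 CPM to 142 and 147 CPM (adjusted p = 0.000844; chosen after its values were seen). The morning genes CCA1 and LHY had log2 fold changes of 0.40 and 0.12 (adjusted p = 0.374 and 0.869). PRR5 fell further than in WT (difference -0.54 ± 0.14, adjusted p = 0.0146), lost leaving out WT replicate 1, nup136 replicate 1, nup50c nup136 replicate 2 or nup50c replicate 2 (adjusted p = 0.0835, 0.0699, 0.0569 and 0.109). Time of harvest is not given in the labels, and its part in these values was not tested.

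The promoters of FKF1, PRR5 and TOC1 follow, made in the same way, because each holds the evening element AAAATATCT, here in capitals on either strand with any CCGAC or CACGTG. FKF1 lies at chr1:25508389-25508638, plus strand, PRR5 at chr5:8358547-8358796, minus strand and TOC1 at chr5:24674713-24674962, plus strand.
FKF1: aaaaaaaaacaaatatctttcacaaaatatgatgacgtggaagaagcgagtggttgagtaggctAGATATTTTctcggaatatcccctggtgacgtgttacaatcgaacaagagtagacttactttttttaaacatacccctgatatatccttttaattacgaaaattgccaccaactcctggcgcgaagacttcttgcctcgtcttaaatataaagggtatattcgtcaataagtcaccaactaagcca
PRR5: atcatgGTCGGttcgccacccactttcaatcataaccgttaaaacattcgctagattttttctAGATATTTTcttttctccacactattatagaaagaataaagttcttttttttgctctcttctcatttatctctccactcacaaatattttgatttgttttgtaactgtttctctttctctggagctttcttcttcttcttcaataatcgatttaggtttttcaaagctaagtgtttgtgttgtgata
TOC1: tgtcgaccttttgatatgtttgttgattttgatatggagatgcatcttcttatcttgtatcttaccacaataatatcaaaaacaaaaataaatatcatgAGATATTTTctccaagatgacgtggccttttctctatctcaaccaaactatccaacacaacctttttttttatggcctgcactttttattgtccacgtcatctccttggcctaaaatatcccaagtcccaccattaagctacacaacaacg
Each window held the evening element 1 time. It lay in 5 of the 16 promoters of the list and in 2.47% of all 21534. Among called genes it lay in 63 of 2843 promoters of those higher (2.22%) and 99 of 3144 of those lower (3.15%). The G-box lay in 7 of the 16 and in 7.36% of all.

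Heat shock genes rose in part. Of the list 6 of 21 tested members rose and 2 fell (median log2 fold change 0.87, or 0.53 leaving out nup50c nup136 replicate 1 and 0.56 with the members at 0 in a genotype set to their bounds). HSFA2, a heat shock factor, rose 5.41-fold, from 1.74 and 1.29 CPM to 9.18 and 7.20 CPM (adjusted p = 1.65e-05), and HSP23.5, a mitochondrial small chaperone, 5.43-fold, from 3.88 and 3.19 CPM to 23.4 and 15.1 CPM (adjusted p = 0.00103). HSP17.6II, a small chaperone of the cytosol, rose from 0.0892 and 0 CPM to 0.510 and 0.603 CPM (adjusted p = 0.012). BIP3, an endoplasmic reticulum chaperone, had 2.01 and 0.333 CPM in nup50c and 0.417 and 0.215 CPM in nup50c nup136, so its groups overlapped, and was called lower (adjusted p = 0.0357). BIP3 lost its call in a model of these genotypes alone, without nup50c nup136 replicate 1, nup50c nup136 replicate 2 or nup50c replicate 1 (adjusted p = 0.0749, 0.0554, 0.237 and 0.957), and HSP17.6II without nup50c nup136 replicate 2 or nup50c replicate 2 (adjusted p = 0.0539 and 0.128). The numbers higher and lower were 8 and 1 in a model of these genotypes alone, 5 and 0 leaving out nup50c nup136 replicate 1 or nup50c replicate 1 and 4 and 0 leaving out nup50c nup136 replicate 2.

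Genes of the rapid response to touch and stress fell, with 1 exception among those called. Of the list 1 of 15 tested members rose and 7 fell (median log2 fold change -0.60). WRKY33, a factor of defence against necrotrophs, fell 2.4-fold, from 103 and 89.7 CPM to 43.7 and 36.5 CPM (adjusted p = 0.000747). WRKY40, a related factor, fell 3.76-fold, from 27.1 and 12.9 CPM to 4.75 and 5.86 CPM (adjusted p = 0.023). TCH4, a wall enzyme induced by touch, fell 1.97-fold, from 403 and 329 CPM to 169 and 202 CPM (adjusted p = 2.88e-05; chosen after its values were seen). MYB15, a MYB factor, rose 2.88-fold, from 1.47 and 0.810 CPM to 2.64 and 3.92 CPM (adjusted p = 0.000453). RRTF1, an ethylene response factor, had 0.446 and 0.286 CPM in nup50c and 0 and 0.0215 CPM in nup50c nup136, a ratio of 34.0-fold lower with a 95% counting interval of 5.51 to 1344 (adjusted p = 0.0116). WRKY40 lost its call without nup50c nup136 replicate 1, nup50c nup136 replicate 2 or nup50c replicate 1 (adjusted p = 0.112, 0.0943 and 0.147) and RRTF1 without nup50c nup136 replicate 1, nup50c nup136 replicate 2 or nup50c replicate 1 (adjusted p = 0.1, 0.0535 and 0.0682). The counts were 2 and 10 with no filter on low counts, 2 and 7 in a model of these genotypes alone and 1 and 4 leaving out nup50c nup136 replicate 1 or nup50c replicate 1.

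Abscisic acid is the hormone of drought. Of its list 1 of 12 tested members rose and 3 fell (median log2 fold change -0.12, or -0.26 leaving out nup50c nup136 replicate 1, 0.018 leaving out nup50c nup136 replicate 2, -0.32 leaving out nup50c replicate 1 and -0.011 leaving out nup50c replicate 2). NCED3, which limits its synthesis, fell 2.58-fold, from 5.02 and 5.12 CPM to 2.48 and 1.44 CPM (adjusted p = 0.0034). RD26, a NAC factor, fell 2.35-fold, from 25.9 and 32.0 CPM to 12.1 and 12.5 CPM (adjusted p = 1.04e-05), and rose from 17.2 and 12.9 CPM in WT to 25.0 and 19.1 CPM in nup136 (difference -1.78 ± 0.24, adjusted p = 4.21e-05), a rise whose call was lost leaving out WT replicate 2 or nup136 replicate 1 (adjusted p = 0.295 and 0.278). ATHB7, a homeodomain factor, rose 2.03-fold, from 29.2 and 33.9 CPM to 65.9 and 62.6 CPM (adjusted p = 3.72e-08), and ABF3, a bZIP factor of the response, fell 1.22-fold, from 59.8 and 57.7 CPM to 49.4 and 46.8 CPM (adjusted p = 0.0271). NCED3 lost its call without nup50c nup136 replicate 2 (adjusted p = 0.0824) and ABF3 without nup50c nup136 replicate 2, nup50c replicate 1 or nup50c replicate 2 (adjusted p = 0.162, 0.132 and 0.0694). Members higher and lower were 1 and 1 leaving out nup50c nup136 replicate 2.

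Genes of mitochondrial stress rose in part in both backgrounds. In nup50c 7 of 12 tested members rose and 1 fell (median log2 fold change 0.34, or 0.54 leaving out nup50c replicate 1), and in WT the counts were 6 and 1. Beside NDB4, NAC13, a factor of this response, rose 1.99-fold, from 10.3 and 11.0 CPM to 21.8 and 20.4 CPM (adjusted p = 7.26e-06). AT12CYS-2, a small protein with cysteine motifs, rose 2.11-fold, from 1.34 and 1.05 CPM to 2.22 and 2.80 CPM (adjusted p = 0.0266). DIC2, a dicarboxylate carrier, fell 2.75-fold, from 58.2 and 43.5 CPM to 17.9 and 19.2 CPM (adjusted p = 0.00663), as it did in WT (log2 fold change -1.65), where the call was lost leaving out nup136 replicate 2 (adjusted p = 0.0507). AT12CYS-2 lost its call without nup50c nup136 replicate 2, nup50c replicate 1 or nup50c replicate 2 (adjusted p = 0.17, 0.0642 and 0.166). The counts were 7 and 2 with no filter on low counts or in a model of these genotypes alone and 4 and 1 leaving out nup50c replicate 1. In WT they were 3 and 1 leaving out WT replicate 1 or WT replicate 2 and 2 and 0 leaving out nup136 replicate 2.

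Of the list of glutathione transferases and detoxification 0 of 18 tested members rose and 6 fell (median log2 fold change -0.21, or -0.34 leaving out nup50c nup136 replicate 1 and -0.13 leaving out nup50c nup136 replicate 2). GSTF5, GSTF6 and TT19, glutathione S-transferase genes that rose, are not in this list and are given above. GSTU3, a glutathione S-transferase like GSTU25 and GSTF8, fell 3.89-fold, from 2.01 and 0.905 CPM to 0.232 and 0.517 CPM (adjusted p = 0.0263), and rose from 0 and 0.0532 CPM in WT to 2.26 and 1.53 CPM in nup136 (adjusted p = 0.00013). GSTU25 fell 1.60-fold, from 69.2 and 74.6 CPM to 48.7 and 41.3 CPM (adjusted p = 0.00214), GSTF8 1.5-fold, from 361 and 353 CPM to 278 and 199 CPM (adjusted p = 0.000345), and the glucosyltransferase UGT73B5 1.37-fold, from 19.3 and 20.5 CPM to 15.8 and 13.1 CPM (adjusted p = 0.0089). GSTU3 lost its call without nup50c nup136 replicate 1 or nup50c replicate 1 (adjusted p = 0.182 and 0.267), and UGT73B5 without nup50c nup136 replicate 2 or nup50c replicate 2 (adjusted p = 0.142 and 0.0685). Members called higher and lower numbered 4 and 7 with no filter on low counts and 2 and 4 leaving out nup50c replicate 2.

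Growth genes were mixed. In the auxin list 3 of 19 tested members rose and 4 fell (median log2 fold change -0.10, or -0.034 leaving out nup50c nup136 replicate 1 and -0.063 leaving out nup50c nup136 replicate 2). IAA19, an auxin-induced repressor, fell 2.83-fold, from 8.61 and 9.19 CPM to 2.97 and 3.32 CPM (adjusted p = 4.23e-06), further than in WT (difference -1.14 ± 0.28, adjusted p = 0.0136), a difference that was lost leaving out WT replicate 2, nup50c nup136 replicate 1 or nup50c replicate 2 (adjusted p = 0.108, 0.0585 and 0.0525). IAA1, of the same family, fell 1.52-fold, from 10.4 and 12.2 CPM to 7.11 and 7.69 CPM (adjusted p = 0.00374). YUC8, which makes auxin, rose 1.95-fold, from 2.61 and 3.43 CPM to 6.07 and 5.69 CPM (adjusted p = 0.00446), and SAUR15 1.91-fold, from 1.36 and 2.45 CPM to 2.50 and 4.78 CPM (adjusted p = 0.0324). IAA1 lost its call without nup50c replicate 2 (adjusted p = 0.0669), YUC8 without nup50c replicate 1 (adjusted p = 0.0848) and SAUR15 in a model of these genotypes alone, without nup50c nup136 replicate 2 or nup50c replicate 1 (adjusted p = 0.0607, 0.531 and 0.34). Among the cytokinin response regulators 2 of 9 tested members rose and 1 fell (median log2 fold change 0.10, or 0.17 leaving out nup50c nup136 replicate 1 and 0.047 leaving out nup50c nup136 replicate 2). These type-A regulators dampen the cytokinin response. ARR3 fell 2.70-fold, from 10.9 and 7.95 CPM to 3.87 and 3.12 CPM (adjusted p = 1.47e-05), ARR7 rose 1.64-fold, from 23.8 and 20.4 CPM to 30.2 and 42.5 CPM (adjusted p = 0.00114), and ARR6 rose 1.26-fold, from 19.5 and 18.7 CPM to 21.9 and 26.3 CPM (adjusted p = 0.0292), lost without nup50c nup136 replicate 2, nup50c replicate 1 or nup50c replicate 2 (adjusted p = 0.362, 0.0898 and 0.144). Auxin counts were 1 and 4 in a model of these genotypes alone, leaving out nup50c nup136 replicate 2 or nup50c replicate 1, and cytokinin counts 1 and 1 leaving out nup50c nup136 replicate 2, nup50c replicate 1 or nup50c replicate 2.

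Wall loosening genes changed in both directions. In nup50c 7 of 13 tested members rose and 4 fell (median log2 fold change 0.22, or 0.10 with no filter on low counts, 0.085 leaving out nup50c nup136 replicate 1 and 0.077 leaving out nup50c replicate 1), and in WT the counts were 1 and 8, with 6 members differing from WT. XTH33, an enzyme that recuts xyloglucan, rose 4.42-fold, from 3.66 and 2.52 CPM to 10.2 and 17.1 CPM (adjusted p = 1.99e-07), and fell from 6.22 and 6.43 CPM in WT to 4.05 and 2.95 CPM in nup136 (adjusted p = 0.015), the latter lost leaving out WT replicate 1, WT replicate 2 or nup136 replicate 2 (adjusted p = 0.0638, 0.0782 and 0.189). XTH24 rose 2.77-fold, from 85.8 and 85.4 CPM to 249 and 226 CPM (adjusted p = 4.27e-10), more than in WT (difference 1.25 ± 0.14, adjusted p = 6.37e-06). The expansin EXPA8 fell 3.27-fold, from 33.9 and 31.5 CPM to 11.4 and 8.56 CPM (adjusted p = 1.05e-07), and XTH17 1.65-fold, from 30.1 and 33.3 CPM to 16.3 and 22.1 CPM (adjusted p = 0.000224). Counts were 6 and 2 leaving out nup50c nup136 replicate 1 or nup50c replicate 2. Those in WT were 1 and 5 leaving out WT replicate 2 and 1 and 4 leaving out nup136 replicate 2.

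Genes of root tissues fell where they were called. Of the patterning and endodermis list 0 of 15 tested members rose and 8 fell (median log2 fold change -0.39, or -0.91 leaving out nup50c nup136 replicate 1, -0.26 leaving out nup50c replicate 1 and -0.60 leaving out nup50c replicate 2), and of the root hair list 0 of 8 tested members rose and 7 fell (median log2 fold change -0.74). PLT1, which keeps the root meristem, fell 2.4-fold, from 7.09 and 5.50 CPM to 2.92 and 2.33 CPM (adjusted p = 0.000463). The Casparian strip genes CASP1 and CASP2 fell from 20.9 and 23.0 CPM to 14.5 and 10.9 CPM and from 10.1 and 9.67 CPM to 5.95 and 4.18 CPM (adjusted p = 3.64e-05 and 0.000197), and CASP4 from 2.45 and 3.62 CPM to 1.48 and 1.53 CPM (adjusted p = 0.0135). RSL4, a factor of root hair growth, fell 2.87-fold, from 6.56 and 5.91 CPM to 2.32 and 2.03 CPM (adjusted p = 0.000346). RHD6, which starts root hairs, fell 2.21-fold, from 7.14 and 6.05 CPM to 3.41 and 2.56 CPM (adjusted p = 0.0109). COBL9, of root hair growth, and PRP1, a wall protein, fell from 8.63 and 7.50 CPM to 5.42 and 3.62 CPM and from 10.1 and 9.21 CPM to 6.05 and 5.11 CPM (adjusted p = 0.00592 and 0.0256). Patterning counts were 0 and 4 leaving out nup50c nup136 replicate 2, and hair counts 0 and 2 leaving out nup50c nup136 replicate 2 and 0 and 1 leaving out nup50c replicate 1. CASP4 lost its call without nup50c nup136 replicate 1, nup50c nup136 replicate 2 or nup50c replicate 2 (adjusted p = 0.064, 0.0682 and 0.185), RHD6 without nup50c nup136 replicate 2 or nup50c replicate 1 (adjusted p = 0.124 and 0.0775), COBL9 without nup50c nup136 replicate 2 or nup50c replicate 1 (adjusted p = 0.133 and 0.0608) and PRP1 without nup50c nup136 replicate 1, nup50c nup136 replicate 2, nup50c replicate 1 or nup50c replicate 2 (adjusted p = 0.0535, 0.179, 0.123 and 0.064).

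Of the DNA damage response list 4 of 11 tested members rose and 0 fell (median log2 fold change 0.61). NAC044, a NAC factor of the pathway, rose 6.84-fold, from 2.28 and 1.14 CPM to 11.1 and 12.2 CPM (adjusted p = 7.99e-08), and 4.81-fold in WT. GMI1, a repair protein, rose 3.13-fold, from 10.5 and 7.57 CPM to 29.4 and 27.0 CPM (adjusted p = 1.31e-08), XRI1, induced by X-rays, 1.85-fold, from 11.9 and 14.5 CPM to 23.7 and 25.1 CPM (adjusted p = 6.84e-05), and SMR7, a cell cycle inhibitor, 3.36-fold, from 0.402 and 0.476 CPM to 1.55 and 1.40 CPM (adjusted p = 0.0102). Of the cell division list 2 of 15 tested members rose and 1 fell (median log2 fold change 0.15, or 0.055 leaving out nup50c replicate 2), none of them by more than 0.36 on the log2 scale. These were AUR1, CDKB2;2 and, lower, MCM2 (adjusted p = 0.0228, 0.0273 and 0.0111). Of the DNA methylation and silencing list 0 of 8 tested members rose and 4 fell (median log2 fold change -0.26). The demethylase gene ROS1 had a log2 fold change of -0.45, the methyltransferase genes CMT3 and MET1 of -0.41 and -0.31, and AGO4, of RNA-directed methylation, of -0.30. SMR7 lost its call without nup50c replicate 1 (adjusted p = 0.0844), AUR1 without nup50c nup136 replicate 2, nup50c replicate 1 or nup50c replicate 2 (adjusted p = 0.207, 0.0775 and 0.12), CDKB2;2 without nup50c nup136 replicate 2, nup50c replicate 1 or nup50c replicate 2 (adjusted p = 0.434, 0.0968 and 0.125), MCM2 without nup50c nup136 replicate 2 or nup50c replicate 1 (adjusted p = 0.0864 and 0.114), ROS1 without nup50c nup136 replicate 2 (adjusted p = 0.13), CMT3 without nup50c nup136 replicate 2 or nup50c replicate 1 (adjusted p = 0.0776 and 0.0755) and MET1 without nup50c nup136 replicate 2 or nup50c replicate 1 (adjusted p = 0.164 and 0.329). Division counts were 4 and 1 with library totals as scaling or with no filter on low counts, 0 and 0 leaving out nup50c nup136 replicate 2 or nup50c replicate 1 and 0 and 1 leaving out nup50c replicate 2, and methylation counts 0 and 1 leaving out nup50c nup136 replicate 2 and 0 and 2 leaving out nup50c replicate 1.

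Of the flowering list 2 of 15 tested members rose and 3 fell (median log2 fold change -0.088, or -0.16 leaving out nup50c replicate 1 and -0.034 leaving out nup50c replicate 2). SPL4, which promotes the floral transition, rose 2.69-fold, from 3.46 and 2.83 CPM to 7.46 and 9.48 CPM (adjusted p = 4.26e-05). MAF5, a repressor related to FLC, rose 2.01-fold, from 3.46 and 5.02 CPM to 7.39 and 9.70 CPM (adjusted p = 0.000834). The floral integrator SOC1 fell 1.31-fold, from 22.3 and 21.8 CPM to 14.7 and 18.9 CPM (adjusted p = 0.045), and AGL24, a MADS-box factor, 1.5-fold, from 8.66 and 11.4 CPM to 5.98 and 7.39 CPM (adjusted p = 0.0367). SOC1 lost its call with library totals, without nup50c nup136 replicate 1, nup50c replicate 1 or nup50c replicate 2 (adjusted p = 0.0549, 0.353, 0.149 and 0.119) and AGL24 without nup50c nup136 replicate 1, nup50c nup136 replicate 2 or nup50c replicate 2 (adjusted p = 0.222, 0.0501 and 0.317). Of the senescence list 2 of 10 tested members rose and 3 fell (median log2 fold change -0.021, or -0.10 leaving out nup50c nup136 replicate 1, 0.16 leaving out nup50c nup136 replicate 2, -0.11 leaving out nup50c replicate 1 and 0.22 leaving out nup50c replicate 2). NAP, a senescence factor, fell 3.88-fold, from 2.50 and 5.07 CPM to 1.11 and 0.840 CPM (adjusted p = 0.000781), and WRKY53, another, 2.06-fold, from 4.68 and 3.81 CPM to 1.74 and 2.39 CPM (adjusted p = 0.00655). SAG29, a sugar transporter, rose 3.68-fold, from 1.56 and 1.24 CPM to 5.79 and 4.50 CPM (adjusted p = 8.45e-06). NYC1, which degrades chlorophyll b, fell 1.47-fold, from 272 and 310.4 CPM to 192 and 205 CPM (adjusted p = 3.5e-05). NAP lost its call without nup50c replicate 2 (adjusted p = 0.0502) and WRKY53 without nup50c nup136 replicate 1 or nup50c replicate 1 (adjusted p = 0.0784 and 0.0708). Flowering counts were 2 and 1 leaving out nup50c nup136 replicate 1 and 2 and 0 leaving out nup50c replicate 2, and senescence counts 1 and 3 leaving out nup50c nup136 replicate 1 and 1 and 2 leaving out nup50c replicate 2.

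Of the 11 seed markers tested edgeR called 0, with 1 at an unadjusted p under 0.05. The DESeq2 Wald test called 1 lower, and edgeR without the low-count filter called 2 higher and 1 lower. Of the 2 pollen markers tested, BCP1 had 0 and 0.0476 CPM in nup50c and 0.278 and 0.388 CPM in nup50c nup136, a ratio of 14.0-fold higher with a 95% counting interval of 3.69 to 126 (adjusted p = 0.0354). That call was lost in a fit of all genes with no filter, without nup50c nup136 replicate 1, nup50c nup136 replicate 2, nup50c replicate 1 or nup50c replicate 2 (adjusted p = 0.0981, 0.0687, 0.151, 0.259 and 0.0626). Within 1 Mb of NUP136 on chromosome 3, 135 of 535 tested genes were called (25.2%), and within 100 kb 11 of 54 (20.4%), near the 27.0% of all genes. Leaving out nup50c nup136 replicate 2 gave 78 within 1 Mb, and leaving out nup50c replicate 1 or replicate 2 gave 77 or 80.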

How the data were processed

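Strand-specific mRNA libraries from 8 genotypes, 2 libraries each, were read from a table of raw counts per gene deposited by the authors. HISAT2 2.0.4, HTSeq 0.6.1p1 and the build TAIR10 are named in the submitters' processing notes. Counting options, including strand setting and the treatment of reads that map to several places, are not given in the sources used here. Overlapping and near-identical genes are therefore uncertain. A deposited table of FPKM values was not used.

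Of 32833 genes, 22427 passed edgeR's filterByExpr with a minimum count of 10, and they held 99.99% of counts. Library sizes were TMM-scaled. One quasi-likelihood model with a coefficient per genotype was fitted to all 16 libraries (edgeR 4.0.16, limma 3.58.1, R 4.3.3; common biological coefficient of variation 0.102, 8 residual degrees of freedom). P-values were adjusted over all genes by Benjamini-Hochberg. The test was also run on counts simulated from the model's own trend of spread. Such data cannot show how it performs for genes whose spread departs from that trend. Replicates correlated at Pearson r between 0.981 and 0.986 in log2 CPM.

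Genes were named by rule: the 3 mutated genes; the 10 largest rises and 10 largest falls among called protein-coding genes with a mean of at least 1 CPM and no overlap between groups; up to 4 called members per list by absolute change; and the 5 largest differences each way between nup50c and WT. The comparison and the lists were chosen with earlier results of these data known. Alternatives were other scalings, no filter, the Wald test of DESeq2 1.42.0, a model restricted to the genotypes of each comparison, a replicate block, a fold minimum and leaving out each library. The fit with no filter called PR1 and TPS04 although their replicates lay far apart, so its other counts need caution.

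A fold against libraries at 0 used 3 counts per library as the limit. Of counts from 1 to 10, 72.9% were even, so 1 count need not be 1 fragment. Limits and intervals cover counting error only, treat each count as independent and may therefore be too narrow. Gene positions equalled those of the RefSeq TAIR10.1 annotation for 32532 of 32548 matched loci.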

Additional observations from a re-analysis of the deposited data

Results flagged for a closer look

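The fold change for the loss of NUP136 differed between nup50c and WT in 1159 genes by edgeR's test of the difference itself. The values given here are the fold change in nup50c minus that in WT, on the log2 scale, for the 5 largest differences each way.

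The fold change was lower in nup50c for PCR1 (difference -10.44, adjusted p = 2.54e-05), PR1 (-9.19, adjusted p = 0.0475) and GSTU3 (-8.05, adjusted p = 0.000124). It was also lower for TPS04 (-7.14, adjusted p = 0.0344) and CYP76G1 (-6.23, adjusted p = 0.0305). CYP76G1 includes a group at 0, so its fitted difference is no bound. PR1, a marker of salicylic acid defence, had 0.362 and 0.0532 CPM in WT and 25.8 and 15.0 CPM in nup136 and 24.4 and 3.48 CPM in nup50c and 1.71 and 2.67 CPM in nup50c nup136. TPS04, a terpene synthase, had 0.452 and 0.0532 CPM in WT and 13.7 and 13.8 CPM in nup136 and 5.98 and 0.571 CPM in nup50c and 0.626 and 1.75 CPM in nup50c nup136. The replicates of nup50c were far apart in both genes. The difference of PR1 lost its call without any 1 of the 8 libraries except nup50c replicate 2 and in a model of these genotypes alone (adjusted p = 0.106), that of TPS04 without any WT, nup136 or nup50c nup136 library and in that model (adjusted p = 0.188), and that of CYP76G1 without WT replicate 2, nup136 replicate 2, either nup50c nup136 library or nup50c replicate 1.

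The fold change was higher in nup50c for RLP21 (4.68, adjusted p = 0.0057), AT5G37990 (4.66, adjusted p = 0.00111) and AT2G14247 (4.63, adjusted p = 1.99e-05). It was also higher for AT2G17850 (4.37, adjusted p = 1.45e-05) and PDF1.4 (3.90, adjusted p = 2.53e-05). AT5G37990 fell in both backgrounds, and its difference reflects a larger fall in WT, where it was almost absent from nup136. AT2G14247 had 0.814 and 1.33 CPM in WT and 0.230 and 0.264 CPM in nup136 and 0.268 and 0.286 CPM in nup50c and 1.53 and 1.68 CPM in nup50c nup136, so it was lower in nup136 than in WT and higher in nup50c nup136 than in nup50c. PDF1.4, of the plant defensin family, had 0.497 and 0.532 CPM in WT and 0.184 and 0.211 CPM in nup136 and 0.781 and 0.524 CPM in nup50c and 2.94 and 4.63 CPM in nup50c nup136. RLP21, a receptor-like protein, had 0.226 and 0.452 CPM in WT and 0.138 and 0 CPM in nup136 and 0.357 and 0.0476 CPM in nup50c and 1.11 and 1.29 CPM in nup50c nup136, and lost its call without WT replicate 2.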

How the results depend on the processing

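For the loss of NUP136 in nup50c, the 6050 calls lay between 5889 and 6456 under other scalings, no filter, the DESeq2 Wald test and a fit of only the genotypes compared, fell to 1264 with a log2 change of at least 1, and ran from 3567 to 4774 with 1 library left out. The same fold minimum gave 521 in WT (333 higher and 188 lower), 1218 in nup82, 3043 in nup50c nup82 and 392 for the difference between nup50c and WT, which was called in 1769 genes without the filter. With 1 library left out these counts ran from 1806 to 2817 in WT, 2945 to 4042 in nup82, 8153 to 8481 in nup50c nup82 and 728 to 1023 for the difference. The count within 1 Mb of NUP136 ran from 77 to 106. Some settings also leave fewer samples or genes, and the cause of these shifts was not tested.

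Replicate 1 of nup50c and replicate 1 of nup50c nup136 did not deviate together (Pearson r = -0.01 across genes), so the numbers were not taken as pairs. A replicate block gave 6255 calls. Among the genes named it ended the call of PDF1.2C (adjusted p = 0.068), that of WRKY18 in WT (0.0706) and those of the differences of TPS04 (0.0529) and RRTF1 (0.0507).

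Of 672 values of named genes with 1 library left out, 547 kept direction and call, 120 lost the call, 2 gained it and 3 changed sign. The 3 that changed sign were NUP50C, NUP82 and TPS04, none of them called in the main fit. The log2 fold change of NUP50C lay between -0.54 and 0.029 and that of NUP82 between -0.17 and 0.011. Both turned without nup50c nup136 replicate 2. The log2 fold change of TPS04 lay between -2.39 and 1.05, turning without nup50c replicate 1. With no filter on low counts TPS04 was called lower (log2 fold change -1.45, adjusted p = 7.79e-06), although its genotypes overlapped. As for PR1, that p-value does not reflect the spread between the libraries. Of 948 values under the other settings, 936 kept direction and call, 10 lost the call and 2 gained it. List counts moved by over 1.5 times in 124 of 408 cases with 1 library left out and 41 of 408 under the other settings. With 2 libraries a genotype, 1 library decides many single calls.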

Other observations

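Protein domains in the deposited annotation were counted where at least 50 genes of a domain were tested, and those below were chosen after their values were seen, with no test. Against 12.9% of all genes higher and 14.1% lower with the loss of NUP136 in nup50c, genes with the auxin responsive domain of SAUR proteins, which are linked to cell expansion, had 15 of 52 higher and 2 lower. Genes with an RNA recognition motif had 33 of 167 higher and 10 lower, and DEAD box helicases 17 of 84 higher and 7 lower.

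Domains of oxidative and secondary metabolism had more genes lower than higher. Peroxidases had 30 of 76 lower and 16 higher, cytochrome P450 genes 57 of 205 lower and 22 higher, and genes of the 2-oxoglutarate oxygenase superfamily 24 of 76 lower and 6 higher. In nup136 against WT the peroxidases kept that direction, with 22 lower and 9 higher. The P450 genes had 18 lower and 26 higher there, and the oxygenases 6 lower and 9 higher. The difference between these counts was not tested. Immune receptor domains had more genes lower than higher in both backgrounds, with NB-ARC genes at 34 of 153 lower and 11 higher in nup50c and 27 lower and 0 higher in WT. Genes with a malectin-like domain, found in receptor kinases of the cell surface, had 21 of 58 lower and 3 higher in nup50c. Pentatricopeptide repeat genes of organelle RNA processing, as the PPR repeat family, had 26 of 383 higher and 23 lower. Close copies in these families can share reads.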
